A study of Oryctolagus cuniculus with 30 samples.

Results

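The axoneme is the microtubule core of the motile cilium. Outer and inner dynein arms slide its doublets against each other, radial spokes and a central apparatus regulate the arms, and the nexin-dynein regulatory complex ties neighbouring doublets together. In the larynx such cilia belong to multiciliated cells of the respiratory epithelium, which move mucus, whereas the vibrating edge of the vocal fold is covered by stratified squamous epithelium. RNA of the genes that carry the standard names of axonemal parts was followed in rabbit vocal fold mucosa. Genes were taken by symbol alone, where CFAP, DNAH, DNAI, DRC, RSPH, ODAD or SPAG is followed by a digit. This gave 86 of 31346 genes in the table. By known function 73 of them belong to the axoneme or to the assembly of its dyneins, 10 are better known from other places in the cell, and 3 (CFAP20DC, CFAP299 and CFAP92) were given no role. The symbol alone decided membership, but the rule and the role lists were set with earlier results of these data known.

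Tissue came from 15 New Zealand white rabbits, 3 in each of 5 groups, and the right and left fold of every animal was sequenced separately, giving 30 libraries. Animals of 4 groups had the mucosa of both folds stripped superficially. After 7 days they received 20 µL in each fold of type I collagen (Col1), of a material labelled VFLP (man) or of a material labelled VFLP (au), or no injection (injury-only). Tissue was taken 28 days after treatment. The control group had no injury. The labels name no genetic alteration in any group, and the 3 animals of each group came from 6 randomized to it.

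Libraries held 14.2 to 31.9 M reads on genes. Per the labels, batch C held all control libraries and 5 of the 6 injury-only libraries, and batch D held the right fold of injury-only animal 1 and all libraries of the 3 injected groups. Injected and control animals therefore share no batch. The tissue was checked against marker genes. Squamous markers, of which 11 of 12 were in the table, had reads in every library and took 1.93 to 4.11% of gene reads in Col1, 2.23 to 4.12% in VFLP (man), 1.55 to 4.05% in VFLP (au), 0.631 to 3.48% in injury-only and 0.124 to 2.67% in control folds. The 11 detected of 16 skeletal muscle markers took 0.0433 to 1.01%, 0.00532 to 0.520%, 0.108 to 1.54%, 0.131 to 1.95% and 1.08 to 6.18% in the same order of groups, and MYH4 alone was at 0 reads, in 1 library. The muscle share had its highest median, 4.42%, in control folds. The right fold of control animal 2 had the lowest squamous and the highest muscle share of all 30 libraries.

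Axonemal RNA was present in every library and varied widely. The 73 axonemal genes together took between 0.00546% of gene reads, in the right fold of control animal 2, and 0.447%, in the left fold of injury-only animal 1. Read counts scaled to library size with TMM factors (CPM) were summed over these genes, with the counts of both folds of an animal added first. The sums were 205, 317 and 811 CPM in the Col1 animals, 377, 2853 and 881 CPM in the VFLP (man) animals, 520, 150 and 1082 CPM in the VFLP (au) animals, 3356, 1587 and 845 CPM in the injury-only animals, and 133, 124 and 519 CPM in the control animals. Every injury-only animal lay above every Col1 and every control animal. The means were 444 ± 322 CPM in Col1, 1370 ± 1309 CPM in VFLP (man), 584 ± 469 CPM in VFLP (au), 1929 ± 1290 CPM in injury-only and 259 ± 226 CPM in control animals (SD, n = 3 each). The SD was large beside the mean in every group. In bulk tissue, fewer ciliated cells and less axonemal RNA per cell cannot be told apart.

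Single folds spread further than animals. The lowest fold held 156 CPM in Col1, 157 CPM in VFLP (man), 143 CPM in VFLP (au), 152 CPM in injury-only and 88.6 CPM in control tissue. The highest held 1106 CPM in Col1, 3747 CPM in VFLP (man), 1592 CPM in VFLP (au), 4104 CPM in injury-only and 944 CPM in control tissue. The groups overlapped, since each had a fold near the level of most control folds. Group medians over 6 folds were 360 CPM in Col1, 974 CPM in VFLP (man), 513 CPM in VFLP (au), 2191 CPM in injury-only and 147 CPM in control. Of the 6 control folds, 5 lay between 88.6 and 174 CPM, and the right fold of animal 3 lay at 944 CPM. Near the bottom of this range most axonemal reads came from CFAP20, CFAP298, SPAG1 and RSPH3, picked out after their values were seen, which took 54.6 to 65.8% of them in the 5 low control folds and 11.0% in the right fold of control animal 3. In the left fold of injury-only animal 1 they took 6.01%.

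**Figure D1:**
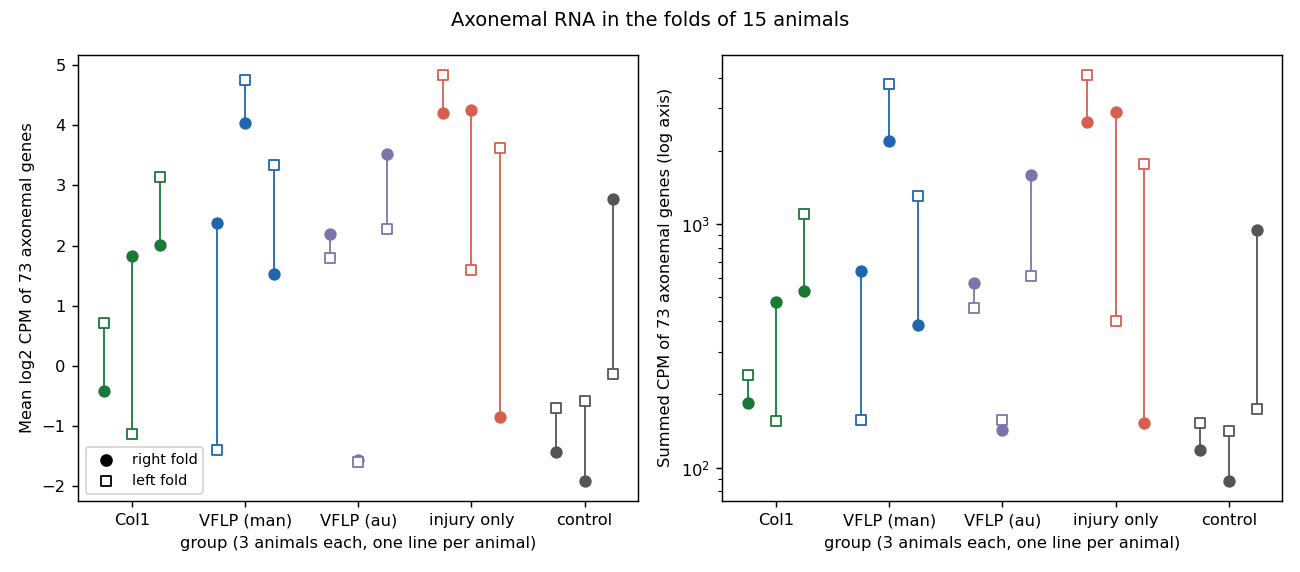
Axonemal RNA of each fold, as the mean log2 CPM of 73 axonemal genes (left) and as their summed CPM on a log axis (right). Each line joins the right fold (filled circle) and the left fold (open square) of 1 animal, with 3 animals in each of the 5 groups. Folds of 1 animal lie up to 4.49 log2 units apart, in injury-only animal 3, and 1 control fold lies at 944 CPM above the 5 others.

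Folds of 1 animal often differed. On the mean log2 CPM of the 73 genes, right minus left ran from -4.49 in injury-only animal 3 to 3.77 in VFLP (man) animal 1. The difference was over 1 log2 unit in 10 of 15 animals, over 2 units in 5 and over 4 units in 1. Injury-only animal 3 had 152 CPM on the right and 1764 CPM on the left, and injury-only animal 2 had 2881 CPM on the right and 399 CPM on the left. VFLP (au) animal 2 was low on both sides, with 143 CPM on the right and 158 CPM on the left. By the log2 mean the right fold was higher in 7 animals and the left in 8, and by the summed CPM the right was higher in 6, VFLP (au) animal 2 being the one that differed. Folds of 1 animal were nevertheless closer than folds of different animals. The median absolute difference was 1.25 log2 units between folds of 1 animal (15 pairs), 2.31 between different animals of a group (60 pairs) and 2.42 between groups (360 pairs). Pairs share libraries, so these medians carry no test.

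No member passed a test of side. In 28 libraries of the 14 animals whose folds share a batch, edgeR with the animal as a block called 0 of 80 members tested for right against left, with 0 members at an unadjusted p under 0.05 and a smallest adjusted p of 0.60. The share of all 16819 genes called was 0%, with 1342 at an unadjusted p under 0.05, and DESeq2 called 0 members and 14 genes in all. The median log2 fold change of the members was 0.25, against -0.01 for all genes tested. The side-to-side difference of an animal went with other genes. It had the same sign as that of 9 regulators of multiciliated cells in 14 of 15 animals, as that of 12 secretory and gland genes in 12, as that of the skeletal muscle markers in 9, as that of mitotic genes in 4 and as that of the squamous markers in 3. Whether the folds were sampled with different amounts of respiratory or gland epithelium was not tested.

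After injury without injection, the axonemal genes had high fold changes and few calls. Of the 86 members 81 passed the filter on low counts, and 77 of these were higher in injury-only than in control animals. Their median log2 fold change was 3.45, against 0.02 for all 17815 genes tested. The fit held a batch term, which rests on the right fold of injury-only animal 1 alone. That fold therefore did not enter this contrast, although the CPM given per animal include it. At an adjusted p under 0.05 (edgeR quasi-likelihood test with batch as a covariate, Benjamini-Hochberg over all genes) 14 rose and 3 fell. These 17 are 21% of those tested, close to the 22.1% of all genes called in either direction. Their total by itself therefore says nothing particular about the members. The directions were split differently, since 1484 of all genes were called higher and 2449 lower. The 3 members that fell are known from outside the axoneme. At an unadjusted p under 0.05 were 58 of 81 members and 6556 of all 17815 genes. In 64 of 81 every injury-only animal lay above every control animal, which held for 20.8% of all genes tested. Members that passed the filter only because of the high groups had to differ, so these counts describe and do not support. With both folds summed and no batch term 16 members and 4138 genes in all were called, and the member median was 3.28.

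The count of 17 turned on single animals and on 1 library. Without the right fold of control animal 3, chosen after its level was seen, 67 of 81 members were called, 66 of them higher, and 18.7% of all genes. That fold had the highest axonemal level of the control folds, so leaving it out favours the axonemal members. The member median was then 5.19, and it was 5.06 in left folds alone and 1.90 in right folds alone. With 1 animal left out the count ran from 2 without control animal 2, where 1733 genes in all were called, to 32 without control animal 3, where 2803 were. It was 7 without control animal 1 (4286 genes in all), 4 without injury-only animal 1 (1981) and 7 without injury-only animal 2 (2924). With the muscle level of each sample as a covariate 0 members passed, and 18 genes of the whole table did, against 3933 without it, so the loss was not particular to the members. The member median was then 5.32, and the log2 fold change of DNAH5 was 7.71. Markers of other tissues differed between these groups too, where 22.1% of all genes were called. Of the skeletal muscle markers 6 of 11 were called lower in injury-only animals, with a median log2 fold change of -2.23, and of the fibroblast genes 4 of 9, with a median of -0.66. Of the secretory and gland genes 4 of 12 were called higher, with a median of 2.47. Their part in the axonemal difference was not tested otherwise.

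**Figure D2:**
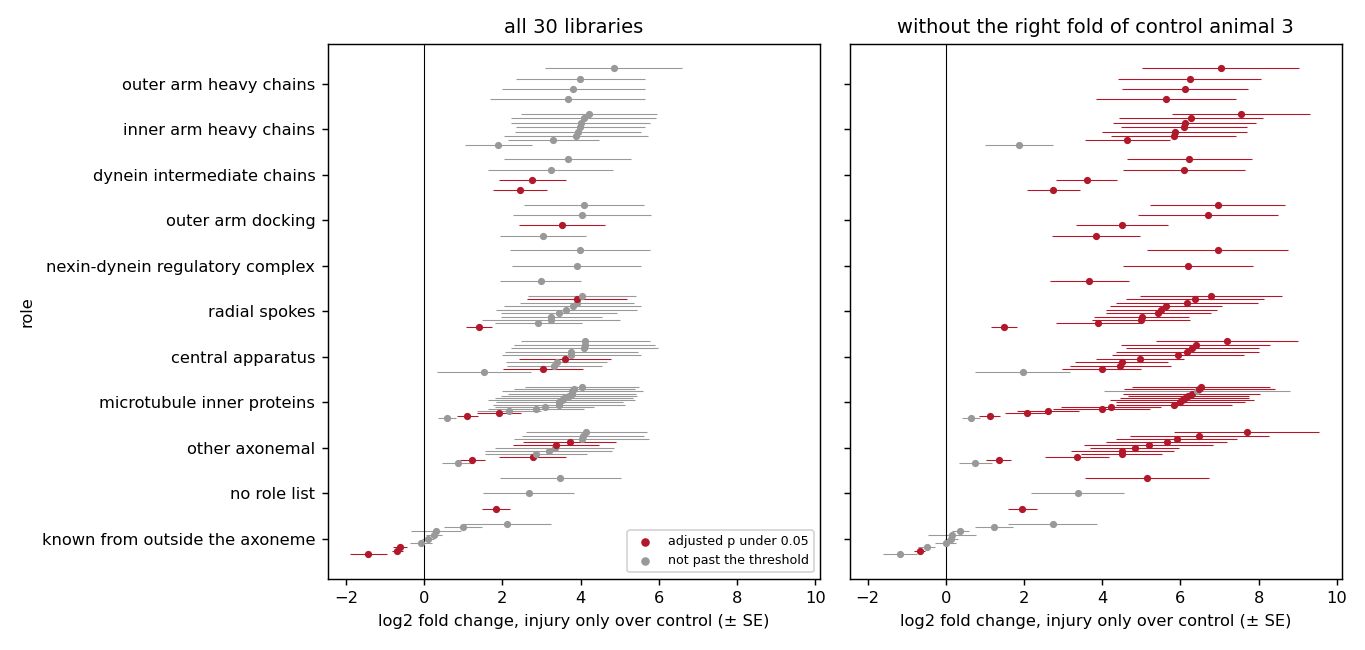
Log2 fold change of 81 members between injury-only and control animals, with SE bars, sorted by role. Red points passed an adjusted p of 0.05. Most points lie between 2 and 5 with wide bars when all libraries are used (left), and 67 of 81 pass without the right fold of control animal 3 (right). That fold was left out after its high axonemal level was seen.

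Dynein heavy chains, the motors of the arms, had median log2 fold changes of 3.91 (outer arm) and 3.96 (inner arm). Of the 12 tested 0 passed, against 22.1% of all genes. DNAH5, a heavy chain of the outer arm, had 293, 180 and 60.1 CPM in the injury-only animals, against 0.458, 1.65 and 46.2 CPM in the control animals. The groups did not overlap, but control animal 3 came close to injury-only animal 3. The log2 fold change was 3.67 (SE 1.98, adjusted p = 0.20). DNAH9, its partner in the distal part of human airway cilia, averaged 90.3 ± 64.8 CPM in injury-only and 7.40 ± 11.8 CPM in control animals (SD, n = 3 each; log2 fold change 3.82, SE 1.84, adjusted p = 0.15). DNAH11, its proximal counterpart, had a log2 fold change of 4.00 (SE 1.64, adjusted p = 0.099). Of the inner arm chains, DNAH6 averaged 77.5 ± 57.2 CPM in injury-only and 5.11 ± 8.10 CPM in control animals, and DNAH7 averaged 34.3 ± 25.01 CPM in injury-only and 2.40 ± 3.75 CPM in control animals (adjusted p = 0.13 and 0.099). DNAH2, part of the double-headed inner arm, had a log2 fold change of 3.31 (SE 1.17, adjusted p = 0.062). Without the right fold of control animal 3, DNAH5 passed (log2 fold change 7.03, SE 2.01, adjusted p = 0.032). In that fit 11 of the 12 heavy chains tested passed, and 18.7% of all genes did. The fold was left out for its high axonemal level, which favours these genes, so the 2 shares are not a fair comparison. DNAH8, which is a chain of sperm flagella in human, had at most 3 reads in any library and was not tested.

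Intermediate chains and docking factors gave the first calls. DNAI4 rose to 49.1, 29.5 and 20.2 CPM in the injury-only animals, against 3.52, 1.56 and 9.77 CPM in the control animals (log2 fold change 2.77, SE 0.85, adjusted p = 0.036). DNAI7 had 59.7, 33.7 and 19.4 CPM in the injury-only animals, against 5.98, 5.61 and 10.9 CPM in the control animals (log2 fold change 2.45, SE 0.68, adjusted p = 0.024). Neither gene overlapped between the groups, and for 20.8% of all genes too every injury-only animal lay above every control animal. DNAI1, the outer arm chain whose loss causes primary ciliary dyskinesia in human, had 61.3, 24.2 and 12.4 CPM in the injury-only animals, against 0.458, 0.312 and 10.8 CPM in the control animals, and did not pass (log2 fold change 3.24, SE 1.60, adjusted p = 0.16). Among the 4 docking factors, which anchor outer arms on the doublet, ODAD4 rose (log2 fold change 3.52, SE 1.09, adjusted p = 0.037). ODAD2 and ODAD3 had log2 fold changes of 4.04 (SE 1.77) and 4.08 (SE 1.53) with adjusted p of 0.12 and 0.075.

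Of the radial spoke genes 2 of 10 tested rose, and of the central apparatus genes 2 of 10. Among all genes 22.1% were called in either direction, and 1484 of 17815 were called higher. RSPH3, a protein of the spoke stalk, had 31.9, 21.7 and 13.7 CPM in the injury-only animals, against 9.50, 6.95 and 10.1 CPM in the control animals (log2 fold change 1.41, SE 0.34, adjusted p = 0.013). RSPH4A, a protein of the spoke head, had a larger log2 fold change of 3.63 and a larger SE of 1.80 (adjusted p = 0.16). Its injury-only animals held 81.2, 56.8 and 28.3 CPM, and its control animals 0.438, 0.356 and 13.97 CPM. CFAP54, a large protein of the central apparatus, rose with a log2 fold change of 3.04 (SE 1.02, adjusted p = 0.0495). SPAG6 and SPAG17, central apparatus proteins as well, had log2 fold changes of 3.77 (SE 1.71) and 4.11 (SE 1.81) without passing (adjusted p = 0.13 and 0.12).

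DRC1, DRC3 and DRC7 of the nexin-dynein regulatory complex had log2 fold changes of 2.98, 3.902 and 3.98, and 0 of the 3 passed (adjusted p = 0.055, 0.11 and 0.13). Microtubule inner proteins line the doublet from within, and 2 of 15 tested rose, against 22.1% of all genes called in either direction. CFAP68 had 6.98, 6.65 and 6.04 CPM in the injury-only animals, against 3.06, 2.76 and 3.09 CPM in the control animals (log2 fold change 1.10, SE 0.27, adjusted p = 0.014). CFAP95 had 10.9, 4.76 and 4.56 CPM in the injury-only animals, against 1.42, 2.05 and 2.60 CPM in the control animals (log2 fold change 1.91, SE 0.56, adjusted p = 0.031). CFAP20, at the junction of the 2 tubules of a doublet, had a log2 fold change of 0.59 (SE 0.22, adjusted p = 0.075).

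Of the 11 other axonemal genes 4 rose, against 22.1% of all genes called in either direction. CFAP298, a factor in the assembly of dynein arms, had 78.2, 43.3 and 32.7 CPM in the injury-only animals, against 22.9, 19.9 and 25.03 CPM in the control animals (log2 fold change 1.24, SE 0.32, adjusted p = 0.018). CFAP43, of the tether that holds the head of an inner arm dynein, averaged 74.7 ± 52.4 CPM in injury-only and 6.30 ± 6.47 CPM in control animals (SD, n = 3 each; log2 fold change 3.72, SE 1.18, adjusted p = 0.041). CFAP119 also rose (log2 fold change 2.78, SE 0.85, adjusted p = 0.036). SPAG1, a further dynein assembly factor, had a log2 fold change of 0.86 (SE 0.40, adjusted p = 0.14). CFAP20DC, for which no role is given, had 5.14, 3.80 and 2.40 CPM in the injury-only animals, against 1.27, 0.891 and 1.1999 CPM in the control animals, and the smallest adjusted p of all members (log2 fold change 1.83, SE 0.36, adjusted p = 0.0054). The SE separated CFAP68, at 0.27, from DNAH5, at 1.98.

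**Figure D3:**
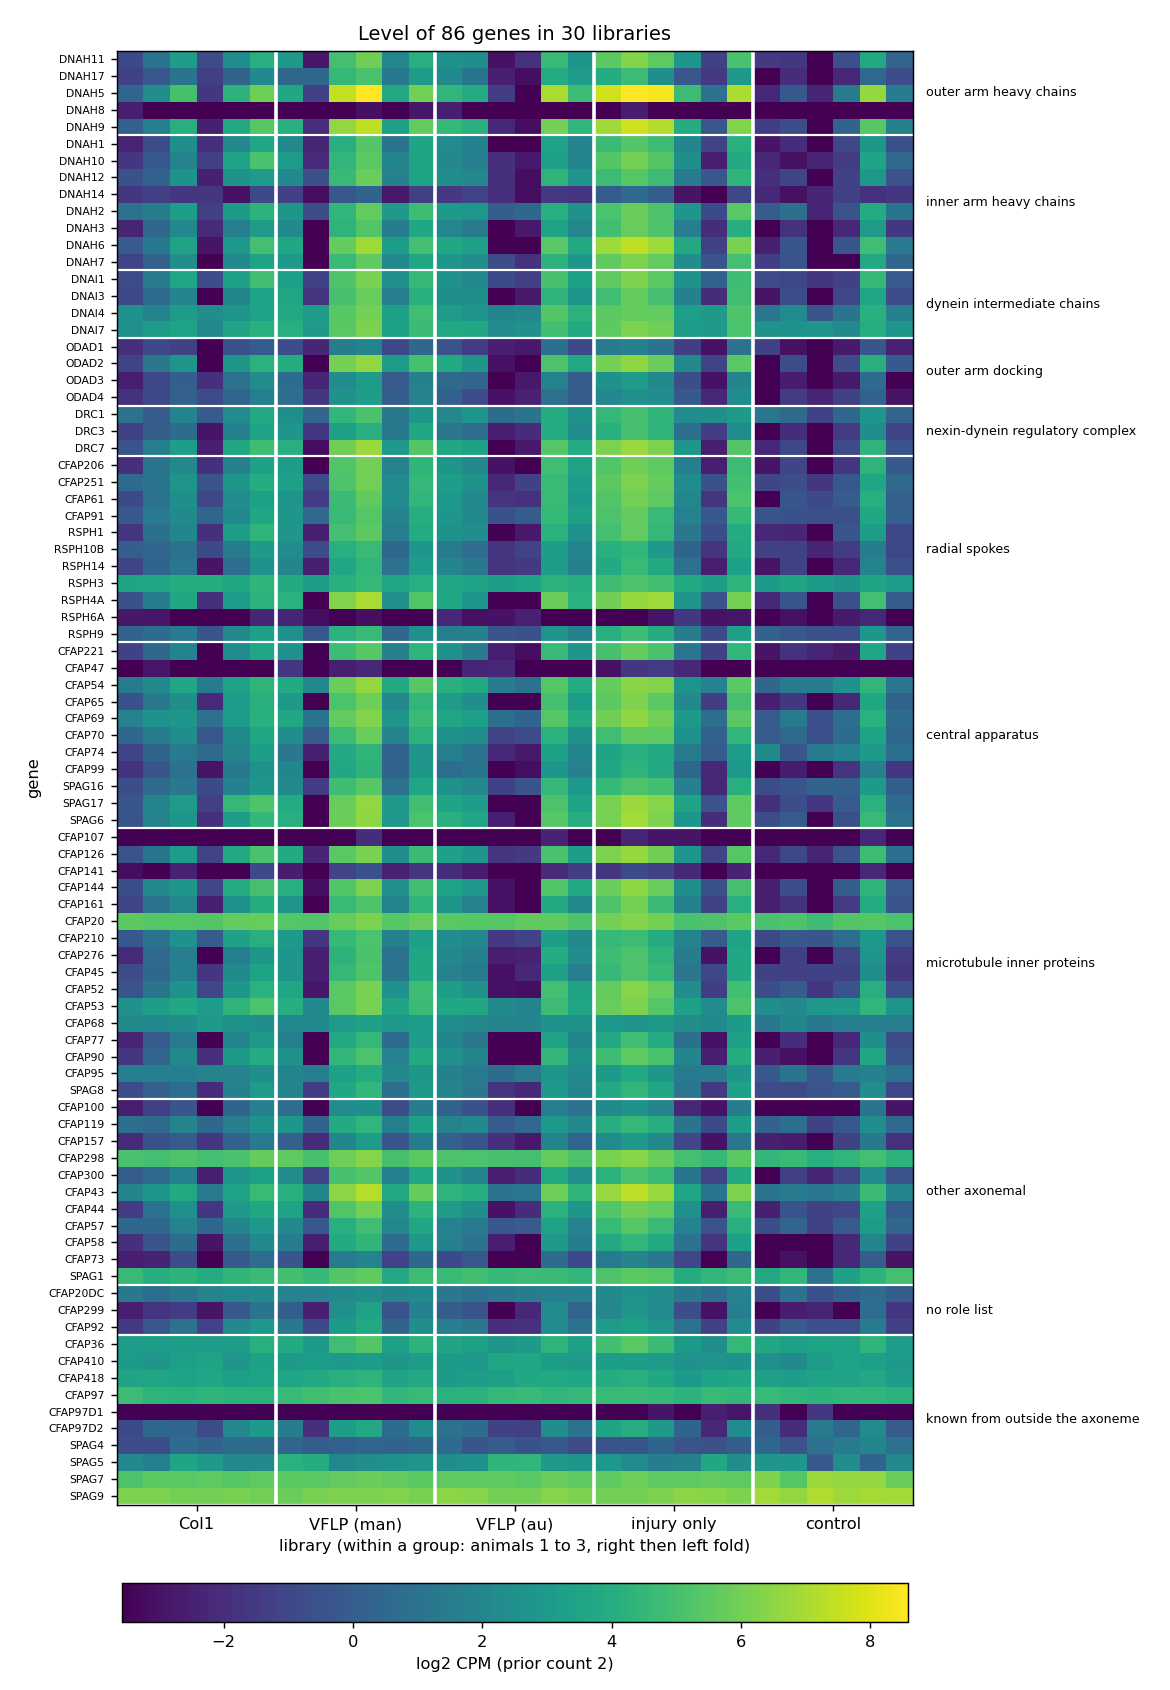
Level of each of the 86 members in each of the 30 libraries, as log2 CPM with a prior count of 2. Genes are ordered by role and libraries by group, animal and side. Most axonemal genes change together from library to library, DNAH8, RSPH6A, CFAP47, CFAP107 and CFAP97D1 stay near 0 reads, and SPAG9 does not follow them.

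Injection of a material was next set against injury alone. No member passed for any material in edgeR. For Col1, 79 of 81 members had lower values than in injury-only animals. Their median log2 fold change was -2.06, against 0.00 for all genes tested. 9 members had an unadjusted p under 0.05, the smallest adjusted p was 0.29, and 0% of all genes were called, with 2530 at an unadjusted p under 0.05. DESeq2 called 0 members and 380 genes in all. In 37 members every Col1 animal lay below every injury-only animal, which held for 11.1% of all genes. The members vary together, and some may have passed the filter only through the high groups. This count therefore describes and does not support. DNAH5 had 2.64, 16.4 and 38.8 CPM in the Col1 animals, against 293, 180 and 60.1 CPM in the injury-only animals (log2 fold change -3.17, SE 1.92, adjusted p = 0.45). SPAG6 had 1.64, 3.61 and 15.4 CPM in the Col1 animals, against 94.3, 38.6 and 21.1 CPM in the injury-only animals (log2 fold change -2.86, SE 1.62, adjusted p = 0.42). Both genes were lower in all Col1 animals and neither difference passed. The median of the members was -1.32 without injury-only animal 1 and -3.35 without Col1 animal 3.

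The VFLP materials gave 0 calls against injury alone too, by edgeR and by DESeq2. For VFLP (au), 77 of 81 members had lower values. Their median log2 fold change was -1.72, against 0.01 for all genes, 4 members had an unadjusted p under 0.05, and 0% of all genes were called (2289 at an unadjusted p under 0.05, and 201 by DESeq2). DNAH5 had 18.3, 0.129 and 77.1 CPM in the VFLP (au) animals, and the range of the injury-only animals began at 60.1 CPM, so the groups overlapped. For VFLP (man) the median was -0.34 against 0.00 for all genes. At an unadjusted p under 0.05 were 0 members and 3051 genes in all, and 1.06% of all genes were called. DNAH5 had 5.83, 259 and 40.7 CPM in the VFLP (man) animals and overlapped the injury-only animals. The VFLP (au) median was -0.93 without injury-only animal 1 and -2.79 without VFLP (au) animal 3. The VFLP (man) median took the other sign with the muscle covariate (0.74), without injury-only animal 1 (0.32) and without VFLP (man) animal 1 (0.08), and was -1.57 without VFLP (man) animal 2. Each of these 3 comparisons uses the same injury-only animals and sets batch D against a group of which 5 of 6 libraries are batch C, so material and batch cannot be told apart.

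Against uninjured controls, the injected groups had fewer members called than genes at large. In these fits the median of all genes lay between 0.11 and 0.13. For VFLP (man) 11 members rose and 2 fell, 16% of 81 against 37.3% of all genes, with a member median of 2.76. The share of members was below that of all genes in spite of the higher median. In 21 members every VFLP (man) animal lay above every control animal, against 25.1% of all genes. Those that rose included ODAD4, at 0.880, 7.37 and 2.29 CPM in the VFLP (man) animals against 0.146, 0.267 and 0.514 CPM in the control animals (log2 fold change 3.48, SE 1.08, adjusted p = 0.024). CFAP298 rose as well, at 39.1, 69.2 and 40.0 CPM in the VFLP (man) animals against 22.9, 19.9 and 25.03 CPM in the control animals (log2 fold change 1.11, SE 0.30, adjusted p = 0.012). CFAP68, CFAP95, CFAP119, DNAI4 and DNAI7 rose with log2 fold changes between 1.27 and 2.47. Without the right fold of control animal 3, left out after its high axonemal level was seen, 66 of 81 members and 33.6% of all genes were called. With 1 animal left out the count was 4 without control animal 2, 6 without control animal 1, 51 without control animal 3 and 4 without VFLP (man) animal 2.

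Fewer genes passed in the other injected groups. For Col1, 2 members rose and 2 fell, 4.94% of 81 against 32.1% of all genes, with a member median of 0.91. For VFLP (au), 1 member rose and 3 fell, 4.94% against 27.5%, with a member median of 1.38. Neither median was stable. The Col1 median turned to -0.10 without Col1 animal 3 and to -0.06 in right folds alone, and was 2.76 without the right fold of control animal 3 and 3.21 without control animal 3. The VFLP (au) median was 0.43 without VFLP (au) animal 3, 3.35 without the right fold of control animal 3 and 3.69 without control animal 3. The Col1 and VFLP (au) calls that rose were CFAP20DC in both and CFAP68 in Col1. CFAP20DC had 2.14, 2.96 and 4.42 CPM in Col1, 2.10, 2.58 and 3.16 CPM in VFLP (au) and 1.27, 0.891 and 1.1999 CPM in control animals (log2 fold change 1.497 with SE 0.34 in Col1 and 1.22 with SE 0.34 in VFLP (au), adjusted p = 0.0057 and 0.019). DNAH5 had log2 fold changes over control of 0.27 (SE 1.78) in Col1 and 0.99 (SE 1.79) in VFLP (au). The count for VFLP (au) was 2 without control animal 2, without VFLP (au) animal 2 or without VFLP (au) animal 3. The control animals serve in all 4 comparisons with uninjured tissue, and injected and control libraries share no batch. With a batch term, which rests on injury-only animal 1 alone, or with the muscle level as a covariate, 0 members passed in each of the 3 injected groups against control. Few genes of any kind passed then. Over all genes the batch term left 0 for Col1, 29 for VFLP (man) and 0 for VFLP (au), and the muscle covariate left 0, 2 and 0 in the same order.

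Between materials no member passed in edgeR or in DESeq2. VFLP (man) against Col1 had a member median of 1.65 with 80 of 81 members higher and 3 at an unadjusted p under 0.05, and 0% of all genes were called (1832 at an unadjusted p under 0.05, and 389 by DESeq2). VFLP (man) against VFLP (au) had a median of 1.31 with 77 higher and 2 at an unadjusted p under 0.05, and 0.0505% of all genes were called (1489 at an unadjusted p under 0.05). VFLP (au) against Col1 had a median of 0.33 with 61 higher and 0 at an unadjusted p under 0.05, and again 0% of all genes were called (829 at an unadjusted p under 0.05, and 35 by DESeq2). For DNAH5 the log2 fold changes were 2.37 (SE 1.87), 1.66 (SE 1.82) and 0.71 (SE 1.79) in these comparisons. Without VFLP (man) animal 2 the first 2 medians were 0.44 and 0.18. The median of VFLP (au) against Col1 turned to -0.54 without VFLP (au) animal 3, -0.36 in left folds alone, -0.16 with limma voom and -0.51 with the muscle level as a covariate, and it was 1.60 without Col1 animal 3. These 3 comparisons lie within batch D.

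The axonemal genes varied together across folds. Each gene was set against the mean log2 CPM of the axonemal genes over 30 libraries, with the gene itself left out of the mean. This is a description, since folds share animals. Pearson's r was over 0.95 for 54 of 73 genes, over 0.9 for 58 and over 0.5 for 70. The genes most like the mean were CFAP99 of the central apparatus and CFAP251 of the radial spokes, with r of 0.995 each, followed by DNAH3 and CFAP126. DNAH5 had r of 0.979 over a range of 12.2 log2 units, with 0 reads in the left fold of VFLP (au) animal 2 and 10775 reads in the left fold of VFLP (man) animal 2. Medians of r by role lay between 0.956 for intermediate chains and 0.979 for outer arm heavy chains. Within groups, with group means removed, DNAH5 still had r of 0.976.

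A few axonemal genes followed the rest only in part. RSPH3 (r 0.841), CFAP298 (r 0.854), CFAP20 (r 0.752), CFAP68 (r 0.700) and SPAG1 (r 0.582) never fell below 1.8 CPM in any library. CFAP20 ran from 27.1 to 79.3 CPM, a range of 1.55 log2 units, where DNAH5 ran from 0 to 382 CPM. CFAP74 of the central apparatus had r of 0.822 and, chosen here after its values were seen, 0.669 CPM in Col1 animal 1 and 1.09 CPM in VFLP (man) animal 1, both under the 2.48, 3.12 and 4.3997 CPM of the control animals. RSPH6A, CFAP47 and DNAH8 had r of -0.03, 0.42 and 0.24, and each had at most 6 reads in any library. Values so near 0 carry little information on these 3 genes.

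**Figure D4:**
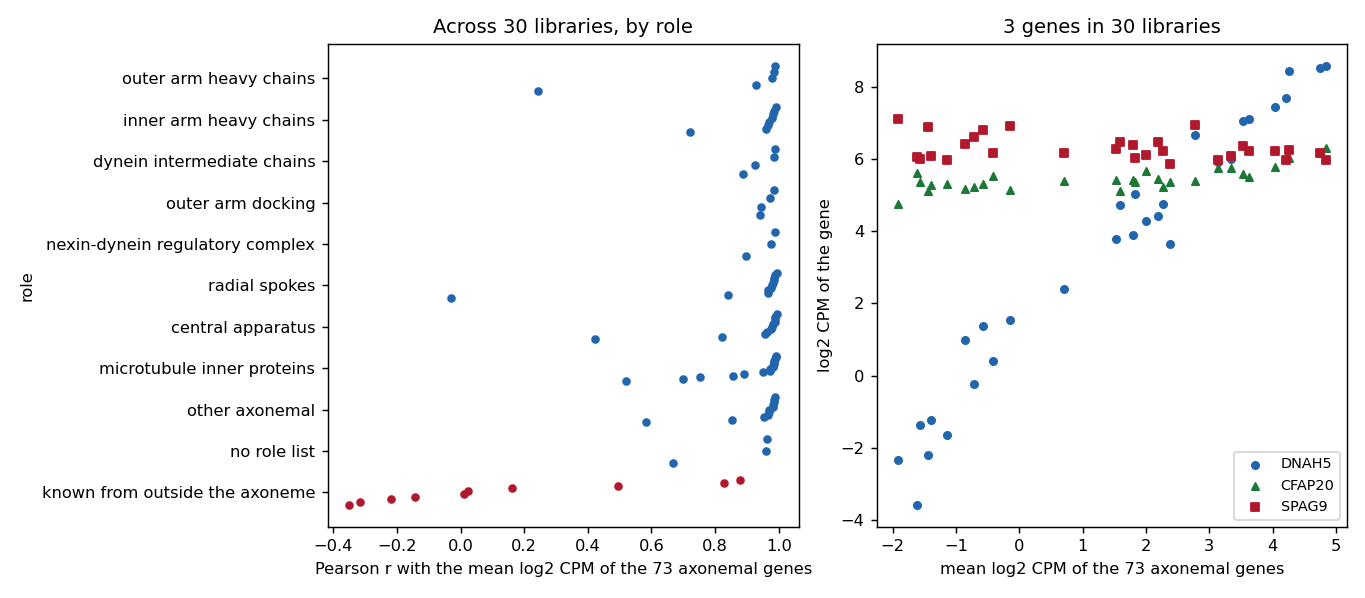
Pearson's r of each member with the mean log2 CPM of the axonemal genes over 30 libraries, the member itself left out, by role (left). The right panel shows the log2 CPM of 3 members against the mean of all 73 axonemal genes. In the right panel DNAH5 climbs by 12.2 log2 units, CFAP20 by 1.55, and SPAG9 does not climb. Genes known from outside the axoneme (red, left) spread from -0.35 to 0.88.

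The symbols also took in 10 genes known from outside the axoneme. The 9 tested had a median log2 fold change of 0.11 in injury-only over control, with 0 called higher and 3 lower. Among all genes 22.1% were called in either direction. SPAG9, a scaffold of JNK signalling and of motor transport, fell to 62.7, 82.0 and 79.1 CPM in the injury-only animals, against 105, 125 and 126 CPM in the control animals (log2 fold change -0.68, SE 0.14, adjusted p = 0.0061). It also fell in Col1 (-0.80, SE 0.14), VFLP (man) (-0.78, SE 0.14) and VFLP (au) (-0.63, SE 0.14), with adjusted p of 0.0014, 0.0011 and 0.0072. SPAG7 fell to 53.6, 47.4 and 48.1 CPM in the injury-only animals, against 56.0, 104 and 75.9 CPM in the control animals (log2 fold change -0.62, SE 0.19, adjusted p = 0.035), and fell in all 3 injected groups against control. SPAG4, a protein of the nuclear envelope, fell in injury-only animals (log2 fold change -1.42, SE 0.46, adjusted p = 0.046) and in VFLP (au) animals (-1.33, SE 0.46, adjusted p = 0.049). SPAG9 and SPAG7 followed the skeletal muscle markers across 30 libraries, with r of 0.73 and 0.67, and SPAG4 had r of 0.30. Without the right fold of control animal 3, SPAG9 still passed in injury-only animals (-0.66, adjusted p = 0.012) but SPAG7 (-0.48, adjusted p = 0.14) and SPAG4 (-1.17, adjusted p = 0.085) did not. With the muscle level as a covariate none of the 3 passed, but few genes of any kind did. Over all genes 18 passed for injury-only, 0 for Col1, 2 for VFLP (man) and 0 for VFLP (au) against control.

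SPAG5 (astrin), a protein of the mitotic spindle, was picked out after its values were seen. It had r of -0.22 with the axonemal mean and 0.91 with the mean of 15 mitotic genes. It was highest in VFLP (au) animal 2, at 20.8 CPM, and VFLP (man) animal 1, at 16.7 CPM, and lay between 3.04 and 9.67 CPM in the 13 other animals. No comparison called it. CFAP97 had r of 0.16 with the axonemal mean and a range of 0.96 log2 units over the 30 libraries. CFAP36 and CFAP97D2, although listed apart from the axoneme, had r of 0.83 and 0.88.

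Heavy chains were compared as reads per 100 DNAH5 reads in the 18 libraries with at least 100 DNAH5 reads. These ratios still moved with the amount of axonemal RNA, since DNAH5 climbed more steeply with the axonemal mean (slope 1.66) than DNAH17 (1.09), DNAH6 (1.64) or DNAH9 (1.60). DNAH9 gave 46.0 in the fold with 10775 DNAH5 reads and 142 in the fold with 327. Ratios between genes also depend on transcript length, so only libraries were compared within a gene. DNAH9 gave 51.6 to 71.2 in 3 Col1 folds, 46.0 to 142 in 5 VFLP (man) folds, 49.3 to 111 in 4 VFLP (au) folds, 41.4 to 58.6 in 5 injury-only folds and 43.0 in 1 control fold. DNAH6 gave 32.1 to 51.3, 29.4 to 101, 33.6 to 65.4, 32.5 to 54.6 and 28.95 in the same order, and the groups with several folds overlapped for both genes. DNAH17, known in human as an outer arm chain of sperm flagella, was chosen for display after its values were seen. It gave 6.03 to 7.51 in Col1, 9.02 to 17.9 in VFLP (man), 11.3 to 33.2 in VFLP (au), 1.59 to 7.58 in injury-only and 1.41 in control folds. All 9 VFLP folds lay above the 9 others, so the ratio separated these libraries, which come from 5 and 6 animals. Ratios of DNAH11, DNAH2, DNAH10 and SPAG17 were looked at too, and for each the VFLP folds overlapped the others. DNAH5 reads ran from 327 to 10775 in the VFLP folds and from 514 to 9717 in the others, and the part of amount in the ratio was not tested. By its level DNAH17 rose in VFLP (man) over control (log2 fold change 4.90, SE 1.72, adjusted p = 0.041) and had log2 fold changes of 2.91 (SE 1.56, adjusted p = 0.54) and 1.75 (SE 1.498, adjusted p = 0.99) over Col1 for VFLP (man) and VFLP (au).

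**Figure D5:**
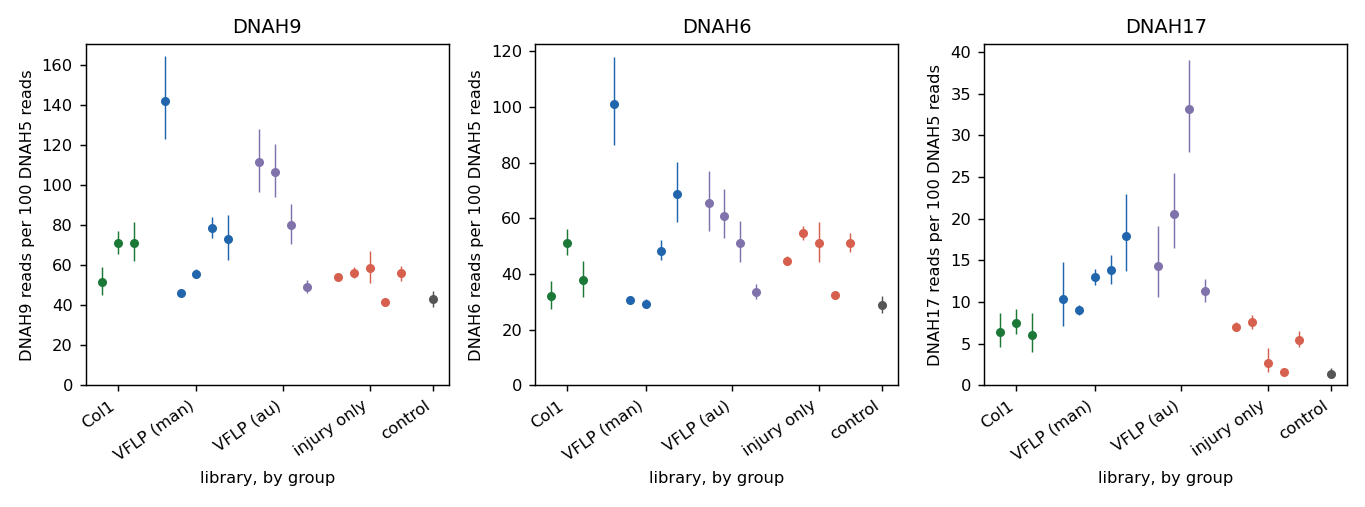
Reads of DNAH9, DNAH6 and DNAH17 per 100 reads of DNAH5 in the 18 libraries with at least 100 DNAH5 reads, by group. Bars are 95% intervals that cover counting error only. DNAH17 lies between 9.02 and 33.2 in the 9 VFLP folds and between 1.41 and 7.58 in the 9 others, whereas DNAH9 and DNAH6 overlap between the groups with several folds.

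Other genes of the motile cilium, listed by function and not by these symbols, moved with the members. Of 53 such genes 48 were in the table and 46 were tested. Their mean log2 CPM had r of 0.997 with that of the axonemal genes over 30 libraries. In injury-only over control 7 rose and 0 fell, with a median log2 fold change of 3.48, and in VFLP (man) over control 8 rose and 0 fell, with a median of 2.93. These are 15.2% and 17.4% of the list, beside 22.1% and 37.3% of all genes called in either direction. Called higher were 1484 of 17815 genes in injury-only and 2972 of 17770 genes in VFLP (man) animals. STK36, a kinase needed for the central pair in mouse, rose in both (log2 fold change 1.28 with SE 0.24 and 1.31 with SE 0.23, adjusted p = 0.0046 and 0.00093). Against injury alone, 0 of 46 passed for each material. Of 9 detected regulators of multiciliated cells 5 rose in injury-only and 5 in VFLP (man) animals over control, MCIDAS, MYB and DEUP1 among them in both. This is 55.6% of the regulators, against 22.1% and 37.3% of all genes called in either direction. FOXJ1, the master regulator of motile ciliogenesis, had r of 0.976 with the axonemal mean and averaged 46.7 ± 35.04 CPM in injury-only and 4.89 ± 7.93 CPM in control animals (SD, n = 3 each). The 12 detected secretory and gland genes had r of 0.65 with the axonemal mean, and the squamous, fibroblast, mitotic and muscle lists had r of -0.12, -0.15, -0.23 and -0.29.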

How the data were processed

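Libraries were made from 100 ng RNA (RIN above 7) with the KAPA mRNA HyperPrep kit, 15 PCR cycles and paired reads of 100 bases, per the labels' protocols. The authors deposited a table of read counts per gene for each library, and the column of the strand that holds most reads was used. STAR 2.7.10b is named per the submitters' processing notes, while the build and gene models behind the table are not given in the sources used. The 4 summary lines that name no gene were left out. All 86 symbols matched RefSeq names (assembly mOryCun1.1), of which no coordinates were used. No transcript lengths were used, so levels of different genes were not compared.

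Counts of both folds were summed per animal. edgeR 4.0.16 in R 4.3.3 used TMM factors, a filter with a minimum count of 10, and the quasi-likelihood test with Benjamini-Hochberg adjustment over all genes at 0.05. The SE given with its fold changes is the absolute log2 fold change divided by the square root of the F statistic, not a direct estimate. Injury-only against control and materials among themselves were fitted with batch as a term over 16 units (injury-only animal 1 split by batch). This term rests on the right fold of that animal alone. Injected against injury-only or control was fitted over 15 animals without it. Right against left used 28 libraries of 14 animals with the animal as a block. Levels are mean log2 CPM with a prior count of 2. The fit over 15 animals without a batch term was run on simulated counts. Their spread was smaller than that of many members, and no gene near 0 reads was changed. That run therefore does not cover the calls given here. P-values measure spread between animals, and intervals on reads cover counting error only. Median depth was 22.7 M reads.

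Named members were up to 10 past the threshold per comparison by smallest p and up to 3 per role with the most reads. Of the other cilium genes and regulators, up to 4 per comparison were named. Members, role lists and marker lists were chosen with earlier results of these data known. Alternatives were DESeq2 1.42.0, its size factors, no filter, unstranded counts, single sides, limma 3.58.1 voom, the other batch handling, a muscle covariate, a replicate block and each animal left out. Replicate numbers only name animals.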

Additional observations from a re-analysis of the deposited data

Results flagged for a closer look

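Of 75 tests of single folds within groups of 6 libraries, 20 found a library whose gap to its nearest neighbour exceeded a ratio of 0.625 of the group's range. Chance gives about 1 in 20 for values spread normally. All 20 flags fell on the highest fold in CPM without a log, which is skewed upward here, and the log2 levels tested gave none. The 20 of 75 therefore do not measure an excess of outliers. Most were the right fold of VFLP (au) animal 3 or the right fold of control animal 3, each the highest of its group. Summed axonemal CPM was 1592 in that VFLP (au) fold and 943.71 in that control fold. DNAH5 had 132.25 CPM in the VFLP (au) fold and 100.86 CPM in the control fold. DNAH6 had 44.493 CPM in the VFLP (au) fold and 29.198 CPM in the control fold, and 30.715 CPM in the left fold of Col1 animal 3. DNAI1 had 33.037 CPM in the VFLP (au) fold and 23.371 CPM in the control fold. DRC7 had 41.731 and RSPH4A 57.585 CPM in the VFLP (au) fold, and 20.199 and 30.428 CPM in the control fold. CFAP43 had 60.346 CPM in the VFLP (au) fold and 26.284 CPM in the control fold. ODAD2 had 16.703 CPM and SPAG6 24.472 CPM in the control fold. CFAP298 had 51.4 CPM in the left fold of Col1 animal 3 and 52.215 CPM in the VFLP (au) fold. SPAG7 had 60.408 CPM in the left fold of injury-only animal 1, the highest of its group. The genes share libraries, so these are not separate events.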

How the results depend on the processing

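Counts of members called changed with several choices. For injury-only against control (17) they were 55 with DESeq2, 0 in left folds alone, 4 in right folds alone, 5 with limma voom, 0 with the muscle covariate and 67 without the right fold of control animal 3, an alternative chosen after seeing the data. Over all genes (3933) the same settings called 5488, 0, 4348, 2994, 18 and 3333, so the 0 in left folds says nothing particular about the members. Leaving out 1 animal gave 2 to 32 members, with 1733 to 4286 genes in all. For VFLP (man) against control (13) they were 38 with DESeq2, 6 in right folds alone, 0 with a batch term, 0 with the muscle covariate, 66 without that fold and 4 to 51 with 1 animal left out. Over all genes (6623) the first 5 called 7658, 7537, 29, 2 and 5977, and 1 animal left out 4438 to 6762. For Col1 against control (4) they were 0 in left folds alone, 0 with a batch term, 0 with the muscle covariate and 3 to 5 with 1 animal left out (all genes 5702, then 18, 0, 0 and 3658 to 6221). For VFLP (au) against control (4) they were 1 in left folds alone, 0 with a batch term, 0 with the muscle covariate and 2 to 4 with 1 animal left out (all genes 4884, then 1706, 0, 0 and 2528 to 5549). The cause was not tested. The other 7 comparisons gave 0 members under every alternative run. With the replicate block the counts were 17, 12, 4 and 3 in the order above for injury-only, VFLP (man), Col1 and VFLP (au). Numbers did not pair the animals: deviations of same-numbered animals had a median correlation of -0.052, and 5 of 15 animals were most like one of their own number. Of the named genes' fold changes, 752 kept direction and side of the threshold, 177 no longer passed, 40 newly passed, and SPAG7 in VFLP (man) against control changed sign with the muscle covariate (0.0099). At low depth of axonemal reads, genes with few counts limit the control levels.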
